A study of Mus musculus with 5 samples.

Results

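DNA replication and mitosis genes, 46 of the 32793 genes in the deposited tables, were taken from a given list of symbols and described in embryonic day 15.5 mouse kidneys, sequenced whole. All 46 were found in both tables. The list was divided by function into 24 S-phase members, which license, start and carry out DNA replication, and 22 mitotic members, which drive chromosome segregation. The 2 NICD_mut libraries came from kidneys that carried Six2TGC/+, a transgene that makes Cre recombinase in nephron progenitors, and RosaN1ICD∆PEST, a Rosa26 allele from which Cre releases an activated Notch1 without its PEST domain. The 3 NICD_wt libraries came from Cre-negative littermates with the RosaN1ICD∆PEST allele. Every NICD_mut library therefore differs from NICD_wt both by the Cre transgene and by activated Notch1, and the effects of these cannot be told apart. No label ties a library to its own animal, so the p-values reflect the spread between libraries, part of which may be technical.

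A dividing cell first loads the MCM helicase onto replication origins with the help of Cdc6 and Cdt1, then activates it with Cdc45 and the GINS complex and copies DNA with polymerases held by the sliding clamp PCNA. Cyclin B with Cdk1 brings the cell into mitosis, where the spindle checkpoint holds chromosomes until all kinetochores are attached. Most genes of the replication programme are transcribed under E2F factors around the G1/S transition, and most mitotic genes later, through the CHR promoter element, CCAAT boxes bound by NF-Y, and Foxm1. In the embryonic kidney, nephron progenitors and the ureteric tip are known as strongly proliferating compartments.

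Libraries held 17361823 to 21356447 counts. Levels are given as CPM, which are counts per library size after TMM scaling, or as deposited TPM, which are also divided by gene length, and changes as log2 fold change, NICD_mut over NICD_wt. Notch1, the gene from which the transgene was made, was at 288 and 324 CPM in NICD_mut, against 127, 142 and 120.2 CPM in NICD_wt. Six2, the transcription factor that keeps nephron progenitors, was counted 7 and 6 times in NICD_mut libraries, against 2667, 3015 and 2411 times in NICD_wt libraries. Of 9 kidney identity genes, 5 fell, 3 rose and 1 did not pass, and none was at 0 in NICD_mut. Over all genes 7583 of 15885 tested (47.7%) passed at an adjusted p of 0.05, 24.8% lower and 23% higher in NICD_mut. Of the calls on counts 48.1% were higher, against 60.7% by limma on log2(TPM + 1). The median log2 change of all genes was 0.106 in that TPM analysis and 0.013 on counts. Adjusted p-values are from the edgeR quasi-likelihood test on counts with Benjamini-Hochberg adjustment unless another test is named.

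The promoters of the members carried different letters in the S-phase and the mitotic group. RefSeq promoter windows (GRCm38.p6, 250 bases before to 50 bases after each start) were matched to 37 of the 46 members by symbol; Aurkb, Ccna2, Ccne2, Foxm1, Gins1, Gins2, Kif20a, Mcm4 and Tpx2 had no entry. Each window was searched on both strands for the E2F letters TTCCCGC or TTGGCGC, the CHR letters TTTGAA and the CCAAT box, CCAAT. An E2F match was found for 12 of 20 S-phase members (60%) and 3 of 17 mitotic members (17.6%), beside 13.5% of 11758 tested genes with a window and 7.79% of all 27025 genes in the promoter table. A CHR match was found for 3 of 20 S-phase members (15%) and 12 of 17 mitotic members (70.6%), beside 14.3% of tested genes and 20.2% of all genes in the table. A CCAAT box was found for 14 S-phase members (70%) and 15 mitotic members (88.2%), beside 42.3% of tested genes. The reverse of TTGGCGC shares letters with CCAAT, and without E2F matches that overlap a CCAAT box the E2F counts were 11 and 2. A match is a description of these letters and not a binding site.

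**Figure D1:**
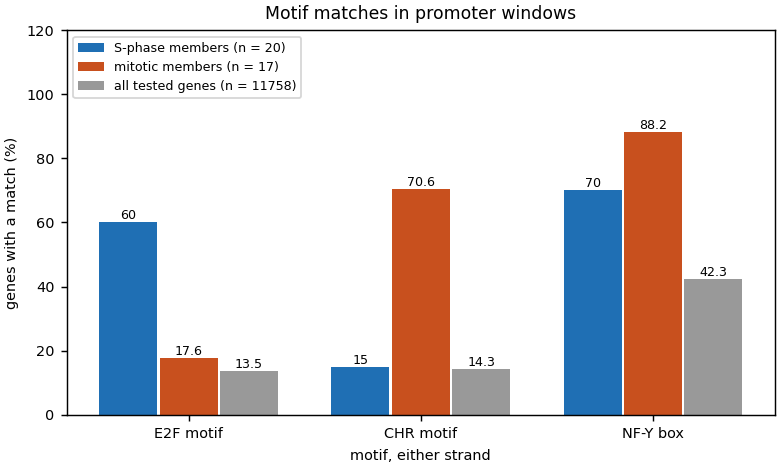
Share of genes with at least 1 match on either strand, in percent, for 3 motifs in RefSeq promoter windows; bars are S-phase members (20 genes), mitotic members (17 genes) and all tested genes with a window (11758 genes). The E2F bar is highest for S-phase members (60%) and the CHR bar for mitotic members (70.6%); the NF-Y box is the CCAAT box.

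The 5 promoter stretches below were chosen after the matches were seen. Mcm5 and Pola1 show the S-phase pattern, Kif11 a mitotic pattern, and Cdk1 and Mki67 hold both E2F and CHR matches. Each is 200 bases, read 5′ to 3′ on the strand of the gene, ending before the annotated starts. Capitals mark matches to the E2F, CHR or CCAAT letters on either strand. The stretches lie at chr8:75109309-75109508 (plus strand) for Mcm5, chrX:93632156-93632355 (minus) for Pola1, chr10:69352939-69353138 (minus) for Cdk1, chr19:37376182-37376381 (plus) for Kif11 and chr7:135716380-135716579 (minus) for Mki67.
Mcm5: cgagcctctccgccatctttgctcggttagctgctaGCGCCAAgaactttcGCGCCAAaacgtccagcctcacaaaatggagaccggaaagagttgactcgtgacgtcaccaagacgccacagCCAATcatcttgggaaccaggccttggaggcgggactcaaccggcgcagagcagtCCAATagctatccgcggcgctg
Pola1: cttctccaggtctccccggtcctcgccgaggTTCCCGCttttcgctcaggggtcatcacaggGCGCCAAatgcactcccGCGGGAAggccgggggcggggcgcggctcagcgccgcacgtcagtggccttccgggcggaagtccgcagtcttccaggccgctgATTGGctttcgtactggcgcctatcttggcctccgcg
Cdk1: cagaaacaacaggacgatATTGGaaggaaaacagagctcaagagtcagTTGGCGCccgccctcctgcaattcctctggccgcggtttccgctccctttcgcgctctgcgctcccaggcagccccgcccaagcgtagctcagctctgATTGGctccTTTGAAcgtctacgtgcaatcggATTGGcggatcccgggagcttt
Kif11: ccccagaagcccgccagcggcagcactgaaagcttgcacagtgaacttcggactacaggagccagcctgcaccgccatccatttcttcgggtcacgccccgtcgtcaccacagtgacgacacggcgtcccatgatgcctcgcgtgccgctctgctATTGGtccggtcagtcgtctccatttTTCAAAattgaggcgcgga
Mki67: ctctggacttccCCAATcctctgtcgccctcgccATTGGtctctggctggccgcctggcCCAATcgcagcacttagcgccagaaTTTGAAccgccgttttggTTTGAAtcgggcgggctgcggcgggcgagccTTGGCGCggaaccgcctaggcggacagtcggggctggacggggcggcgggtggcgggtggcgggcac
In Mcm5 the E2F matches began 164 and 149 bases before the start, and in Pola1 169, 138 and 121 bases before it. In Kif11 a CCAAT box on the reverse strand began 45 bases and a CHR match 19 bases before the start. The 2 CHR matches of Mki67 began 116 and 98 bases before the start, and its E2F match 67 bases before it.

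Replication and mitosis genes were lower in NICD_mut kidneys almost throughout. Of the 46 members, 44 fell, 0 rose and 2, E2f1 and Mki67, did not pass (edgeR quasi-likelihood test), while 24.8% of all tested genes were called lower. In 44 members both NICD_mut libraries lay below all 3 NICD_wt libraries, which was so for 34.2% of tested genes. The median log2 change was -0.74 over the members and 0.01 over all tested genes. A fall of more than 1 log2 unit was seen in 5 of the 46 members (Bub1, Cenpa, Rfc4, Ccnb1 and Mcm10), a larger share than the 4.01% of all tested genes. All 46 members passed the filter on low counts. In the deposited TPM, 41 members were lower by limma on log2(TPM + 1), with 18.7% of all genes called lower, and 40 with no filter on low TPM, with 12.6% of all genes called lower. In whole kidneys, fewer dividing cells and less of these transcripts per dividing cell cannot be told apart.

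**Figure D2:**
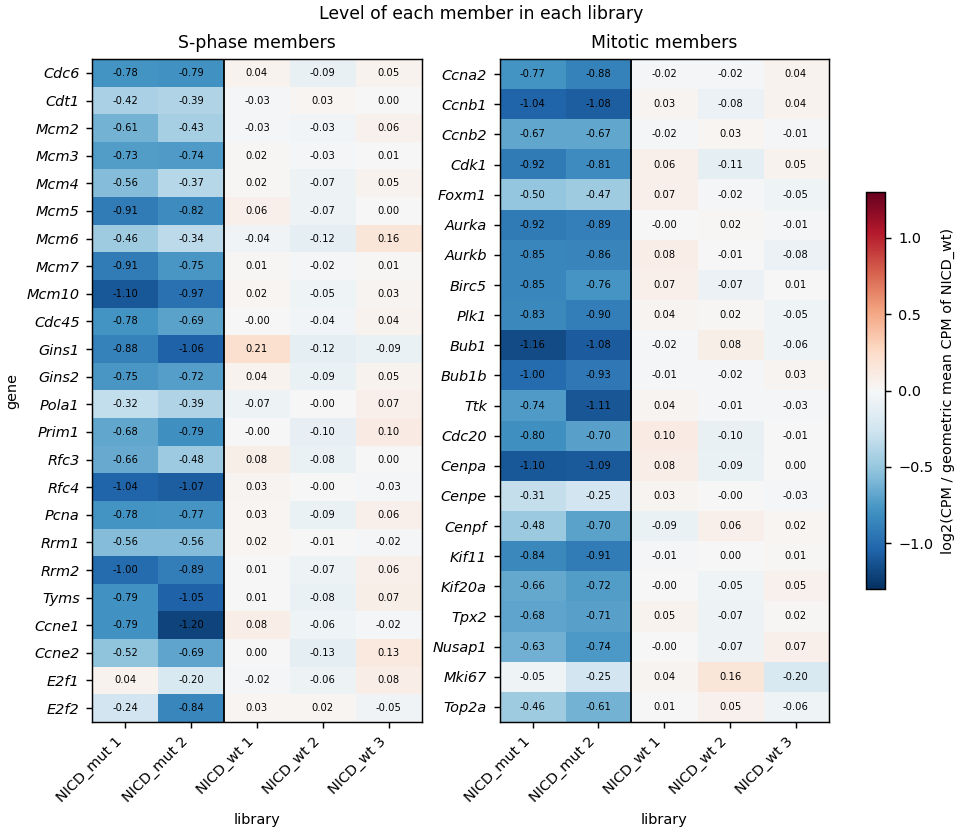
Level of each member in each library as log2 of CPM over the geometric mean CPM of the 3 NICD_wt libraries; rows are genes, columns are libraries, with NICD_mut left of the black line. The NICD_mut columns are blue for nearly every gene, and E2f1 and Mki67 are the rows in which a NICD_mut library lies within the NICD_wt range.

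Origin licensing genes and the MCM helicase fell in 8 of 8 cases, with log2 changes of -0.86 to -0.40. Mcm5, a subunit of the helicase ring (chr8:75109569-75128439, plus strand), was at 117 and 125 CPM in NICD_mut, against 229.7, 209.7 and 220.3 CPM in NICD_wt. Its log2 change was -0.86 (SE 0.07) (edgeR, adjusted p = 2.21e-05), and the groups did not overlap. The subunits did not change by the same amount: Mcm7 and Mcm3 were at -0.83 and -0.73, Mcm2, Mcm4 and Mcm6 at -0.52, -0.46 and -0.40. The loading factors Cdc6 and Cdt1 were at -0.78 and -0.40. Summed over Mcm2 to Mcm7, 503 and 527 TPM were measured in NICD_mut, against 734, 704 and 760 TPM in NICD_wt. Between the most and the least abundant of these 6 subunits the TPM ratio was 1.97 and 2.03 in NICD_mut, against 1.97, 2.05 and 1.99 in NICD_wt. The subunits compared were not the same. They were Mcm6 over Mcm5 in both NICD_mut libraries, Mcm7 over Mcm4 in NICD_wt 1 and NICD_wt 2, and Mcm6 over Mcm4 in NICD_wt 3. Like ratios therefore do not show that the balance of subunits was kept.

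Helicase activation genes fell in 4 of 4 cases, with log2 changes of -1.04 to -0.74. Mcm10, which helps to switch the loaded helicase on (chr2:4989714-5012791, minus strand), was at 21.6 and 23.5 CPM in NICD_mut, against 46.9, 44.6 and 47.2 CPM in NICD_wt, with a log2 change of -1.04 (SE 0.09) and edgeR, adjusted p = 3.19e-05. Both NICD_mut libraries held about the same level, well apart from NICD_wt. Gins1 and Gins2, parts of the GINS complex that binds the helicase, were at -0.97 and -0.74, and Cdc45, its other partner, at -0.74.

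Primase, clamp and clamp loader genes fell in 5 of 5 cases. Rfc4, a subunit of the complex that loads the clamp (chr16:23113943-23127737, minus strand), was at 18.6 and 18.1 CPM in NICD_mut, against 39.1, 38.1 and 37.5 CPM in NICD_wt. Its log2 change of -1.06 (SE 0.09) was the largest of the S-phase members (edgeR, adjusted p = 3.02e-05). A second loader subunit, Rfc3, was at -0.57 (SE 0.10). Pcna, the sliding clamp, had the highest TPM of all 46 members in both groups, at 296 ± 4.22 TPM in NICD_mut and 464 ± 20.7 TPM in NICD_wt (SD, n = 2 and n = 3), and a log2 change of -0.77 (SE 0.07) on counts. The primase subunit Prim1 was at -0.74, and Pola1, the catalytic subunit of the polymerase that extends the primer, at -0.36. In deposited TPM Pola1 did not pass (limma on log2(TPM + 1), -0.22, Benjamini-Hochberg adjusted p = 0.0683).

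The 3 genes of deoxynucleotide supply fell. Rrm2, the small subunit of ribonucleotide reductase (chr12:24708241-24714146, plus strand), was at 76.3 and 82 CPM in NICD_mut, against 153, 146 and 159 CPM in NICD_wt, with a log2 change of -0.95 (SE 0.07) and edgeR, adjusted p = 1.43e-05. Its large subunit, Rrm1, was at -0.56 (SE 0.06), and Tyms, which makes thymidylate, at -0.91 (SE 0.09). All 3 had NICD_mut libraries below every NICD_wt library.

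Of the G1/S cyclins and E2F activators 3 fell and 1 did not pass. Ccne1, encoding cyclin E1, which with Cdk2 starts S phase (chr7:38097984-38107534, minus strand), was at 33.4 and 25.1 CPM in NICD_mut, against 61.1, 55.3 and 56.7 CPM in NICD_wt. Its log2 change was -0.98 (SE 0.12) (edgeR, adjusted p = 0.000333), and NICD_mut 2 was the lower of the NICD_mut libraries. Ccne2, encoding cyclin E2, was at -0.61 (SE 0.11). E2f1, a transcription factor that activates replication genes (chr2:154559407-154569892, minus strand), was at 46.3 and 39 CPM in NICD_mut, against 44.3, 43 and 47.5 CPM in NICD_wt; the 2 NICD_mut libraries lay on either side of most of the NICD_wt values. Its log2 change was -0.08 (SE 0.10) (edgeR, adjusted p = 0.55) and took the other sign, 0.03, without NICD_mut 2, and 0.04 in TPM. E2f2, a related activator, was at 26.9 and 17.8 CPM in NICD_mut, against 32.5, 32.4 and 30.8 CPM in NICD_wt, with a log2 change of -0.51 (SE 0.17) and edgeR, adjusted p = 0.0352. Without NICD_mut 2 the E2f2 change was -0.26 and did not pass; nor did it pass without any 1 NICD_wt library (edgeR, adjusted p = 0.0727 without NICD_mut 2 and 0.081 to 0.103 without a NICD_wt library) or in TPM.

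**Figure D3:**
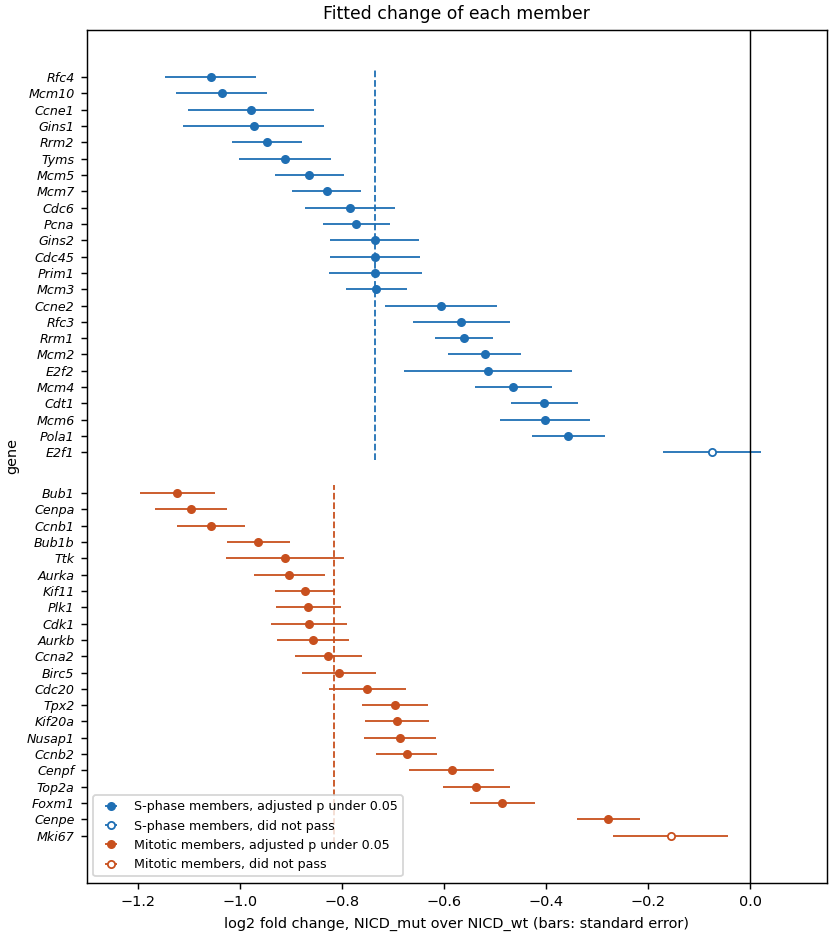
Fitted log2 fold change, NICD_mut over NICD_wt, with its standard error, for 24 S-phase members (above) and 22 mitotic members (below), each sorted by size; open points did not pass and dashed lines are the medians of each group. The medians lie at -0.74 and -0.82, and the ranges overlap almost wholly.

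Mitotic cyclins, Cdk1 and Foxm1 fell in 5 of 5 cases. Ccnb1, encoding cyclin B1 (chr13:100778650-100786570, minus strand), was at 76.8 and 74.7 CPM in NICD_mut, against 161, 149 and 162 CPM in NICD_wt. Its log2 change was -1.06 (SE 0.07) (edgeR, adjusted p = 6.93e-06), the smallest adjusted p among the members. Cdk1, the kinase it activates, was at -0.86, Ccna2, encoding cyclin A2, at -0.83, and Ccnb2, encoding cyclin B2, at -0.67. Foxm1, a transcription factor of mitotic genes, changed least of the 5, at -0.49 (SE 0.06).

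Mitotic kinases and the chromosomal passenger gene Birc5 fell in 4 of 4 cases, within a narrow range of -0.90 to -0.81. Plk1, a kinase of centrosome maturation and mitotic entry (chr7:122159439-122169873, plus strand), was at 62.8 and 60.1 CPM in NICD_mut, against 115, 113 and 108 CPM in NICD_wt, with a log2 change of -0.87 (SE 0.06) and edgeR, adjusted p = 1.51e-05. Aurka, a kinase of spindle assembly (chr2:172356190-172370535, minus strand), was at 34.8 and 35.6 CPM in NICD_mut, against 65.7, 66.5 and 65.1 CPM in NICD_wt, with a log2 change of -0.90 (SE 0.07) and edgeR, adjusted p = 1.96e-05. In both genes the libraries within a group were close and the groups lay apart. Aurkb, the passenger complex kinase, and Birc5, the survivin gene, were at -0.86 and -0.81.

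Spindle checkpoint and anaphase genes fell in 4 of 4 cases and had the lowest median of the 11 functional groups, -0.94. Bub1, a checkpoint kinase at kinetochores (chr2:127801122-127831865, minus strand), was at 37.6 and 39.7 CPM in NICD_mut, against 83, 88.6 and 80.7 CPM in NICD_wt. Its log2 change of -1.12 (SE 0.07) was the largest of all 46 members (edgeR, adjusted p = 8.96e-06). Bub1b, encoding the checkpoint protein BubR1 (chr2:118598211-118641591, plus strand), was at 75.8 and 80 CPM in NICD_mut, against 150.5, 150.3 and 155 CPM in NICD_wt, with a log2 change of -0.96 (SE 0.06) and edgeR, adjusted p = 7.54e-06. The checkpoint kinase Ttk was at -0.91 (SE 0.12), and Cdc20, the activator of the anaphase-promoting complex that the checkpoint restrains, at -0.75 (SE 0.08).

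Centromere genes fell in 3 of 3 cases but by different amounts. Cenpa, the histone variant that marks centromeres (chr5:30666777-30674830, plus strand), was at 49.2 and 49.7 CPM in NICD_mut, against 112, 99.6 and 106 CPM in NICD_wt, with a log2 change of -1.10 (SE 0.07) and edgeR, adjusted p = 7.83e-06. Cenpf, a large kinetochore protein, was at -0.59 (SE 0.08), and Cenpe, a kinetochore motor, at -0.28 (SE 0.06). Cenpe did not pass in deposited TPM (limma on log2(TPM + 1), -0.15, Benjamini-Hochberg adjusted p = 0.156). Spindle motors and microtubule binding genes fell in 4 of 4 cases. Kif11, the motor that separates spindle poles (chr19:37376403-37421859, plus strand), was at 73.1 and 69.7 CPM in NICD_mut, against 129.5, 131 and 132 CPM in NICD_wt, with a log2 change of -0.87 (SE 0.06) and edgeR, adjusted p = 1.03e-05. Tpx2, an Aurora A cofactor, Kif20a, a motor of cytokinesis, and Nusap1, a spindle microtubule binding protein, lay close together at -0.70, -0.69 and -0.69.

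Of the mitotic chromosome genes, Top2a fell and Mki67 did not pass. Top2a, the topoisomerase that untangles sister chromatids (chr11:98992943-99024189, minus strand), was at 266 and 241 CPM in NICD_mut, against 369, 381 and 353 CPM in NICD_wt, with a log2 change of -0.54 (SE 0.07) and edgeR, adjusted p = 0.000227. Mki67, encoding the proliferation antigen Ki-67 (chr7:135689784-135716361, minus strand), was at 233 and 203 CPM in NICD_mut, against 248, 269.9 and 211 CPM in NICD_wt. NICD_mut 1 lay between the NICD_wt values, and NICD_mut 2 just below the lowest of them. The log2 change was -0.16 (SE 0.11) (edgeR, adjusted p = 0.295), and it passed in none of the 16 alternative analyses. A change that misses the threshold does not show that Mki67 was at the same level. In TPM, Mki67 was at 37.3 ± 4.89 TPM in NICD_mut and 38.1 ± 4.52 TPM in NICD_wt (SD, n = 2 and n = 3), and ranked 27 among the 46 members in NICD_mut and 35 in NICD_wt, the largest move in rank of any member.

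Log2 changes of S-phase and mitotic members overlapped almost wholly. The 24 S-phase members had a median log2 change of -0.74 (60.1% of the NICD_wt level) with middle values (quartiles) of -0.88 to -0.52. The 22 mitotic members had a median of -0.82 (56.8% of the NICD_wt level) with quartiles of -0.90 to -0.68. The spread of log2 changes across genes was 0.25 and 0.24 (SD over 24 and 22 genes). The mean log2 CPM of mitotic members lay above that of S-phase members by 0.448 and 0.443 in NICD_mut, against 0.514, 0.556 and 0.466 in NICD_wt. The groups did not overlap in this gap, although NICD_mut 1 (0.448) and NICD_wt 3 (0.466) lay close. The mean difference of the gap was -0.07 log2, and -0.091 to -0.047 with a library left out. Over all libraries it was larger than the spread of 0.04 between libraries of a group (pooled SD) and smaller than the median change of either set. No test was made of this score. Together the members took 0.354 and 0.35% of all counts in NICD_mut, against 0.57, 0.556 and 0.571% in NICD_wt.

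Log2 change was weakly to moderately related to exonic length among the members. Exonic length is the union of all annotated exons of a gene and can exceed the length of the transcripts present. Gins2, with 4097 exonic bases, was at 43.9 CPM and 87.1 TPM in NICD_wt, while Gins1, with 1516, was at 26 CPM and 49 TPM. An order by transcript length could therefore differ. Across the 46 members, log2 change and exonic length had a Spearman rho of 0.26 (0.27 over the 24 S-phase and 0.28 over the 22 mitotic members). Over 15035 tested genes with a length rho was 0.09. With log2 of length, Pearson r was 0.34 over the members (0.31 S-phase and 0.43 mitotic) and 0.07 over those tested genes. All points share the same 5 libraries, so these values are a description. The 6 longest members (Cenpf, Rrm1, Mki67, Top2a, Pola1 and Cenpe), with 8620 to 15433 exonic bases, changed by -0.59 to -0.16. The 6 shortest (Gins1, Ccnb2, Rfc4, Cdc20, Plk1 and Pcna), with 1516 to 2400 bases, changed by -1.06 to -0.67. These 12 genes were picked by length after the values were seen, and the part of length in the results was not tested.

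**Figure D4:**
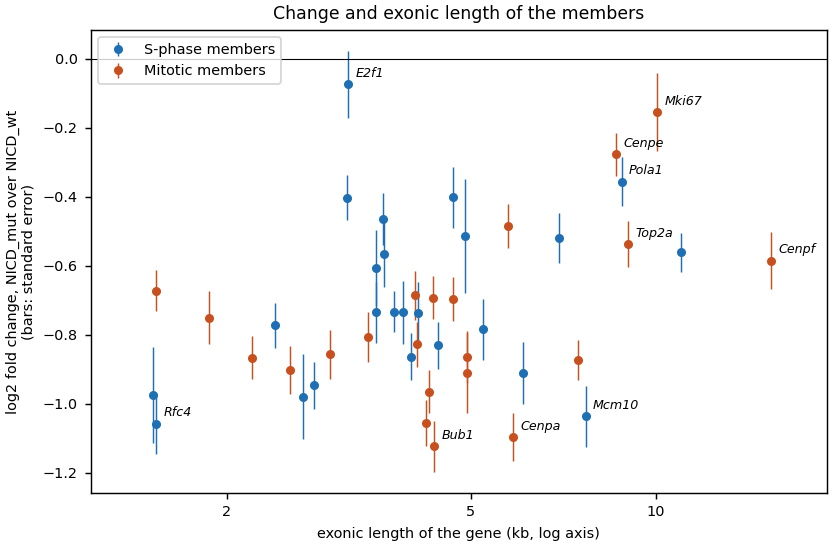
Log2 fold change, NICD_mut over NICD_wt, with its standard error, against exonic length in kilobases on a log axis, for 24 S-phase and 22 mitotic members. The 6 longest members lie between -0.59 and -0.16, while E2f1, of middle length, is closest to 0.

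Other genes of the same pathways were lower as well, beside 24.8% of all tested genes called lower. In a list of 48 other replication genes, 46 fell and only Orc3 and Mcm9 did not pass; the median log2 change was -0.65. Among them Uhrf1, which recruits maintenance methylation to new DNA, was at 155 and 154 CPM in NICD_mut, against 280.4, 279 and 289 CPM in NICD_wt, a log2 change of -0.87 (SE 0.06). The flap nuclease Fen1 was at -0.98 (SE 0.07) and the origin recognition subunit Orc2 at -0.90 (SE 0.07). In a list of 76 other mitosis genes, 73 fell and none rose; the median was -0.71. The ubiquitin-conjugating enzyme Ube2c was at -1.05 (SE 0.07), the Cdk subunit Cks1b at -1.11 (SE 0.08) and the checkpoint gene Mad2l1 at -1.04 (SE 0.07); Zwint, Cit and Mastl did not pass, at 0.10, -0.02 and -0.33. Zwint passed as higher in filtered TPM (0.22) and without NICD_mut 1 (0.21), and Mastl as lower without NICD_wt 3 (-0.41). In a list of 23 genes of replication stress and homologous recombination, 20 fell, none rose and the median was -0.73. The checkpoint kinase Chek1 was at -0.91 (SE 0.09) and the helicase Blm at -0.99 (SE 0.10).

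Regulators upstream of these programmes were more mixed, beside 24.8% of all tested genes called lower and 23% higher. Among 24 E2F, RB and MuvB regulators, 15 fell and 2 rose, while 7 missed the threshold; their median was -0.48. E2f3, an activating E2F, was at 45.3 and 51 CPM in NICD_mut, against 90.8, 85.8 and 90.6 CPM in NICD_wt, a log2 change of -0.89 (SE 0.07), and Skp2, a ubiquitin ligase subunit that removes Cdk inhibitors, was at -0.81 (SE 0.07). Cdk6, a kinase of G1 that acts with D-type cyclins, rose: it was at 75.4 and 78.3 CPM in NICD_mut, against 32.9, 28.2 and 29.6 CPM in NICD_wt, with a log2 change of 1.35 (SE 0.08) and edgeR, adjusted p = 7.1e-06. Rbl2, an RB relative that acts in repressor complexes of resting cells, also rose, at 0.30 (SE 0.09), but at 0.17 it did not pass without NICD_mut 1, nor did it without NICD_wt 2 or NICD_wt 3, at 0.29 and 0.27. Rb1 itself was at 0.24 (SE 0.16) and did not pass; without NICD_mut 2 it did, at 0.47, and without NICD_mut 1 it was at -0.035.

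Most nephron progenitor and ureteric tip markers fell, and by more than the members, while endothelial and most macrophage and leukocyte markers rose. The median log2 change was -2.69 over nephron progenitor and -2.42 over ureteric tip markers, against -0.74 over the members. Over all tested genes 24.8% were called lower and 23% higher. Of 10 nephron progenitor markers 8 fell, 1 did not pass and 1, Tmem100, rose, at 1.32 (SE 0.15) (edgeR, adjusted p = 0.000129). The summed level of all 10 was 125 and 88.8 CPM in NICD_mut, against 738 to 762 CPM in NICD_wt. Ureteric tip markers fell in 6 of 8 cases, with 121 and 76 CPM in NICD_mut, against 515 to 523 CPM in NICD_wt. No gene of either list was at 0 in both NICD_mut libraries. Endothelial markers rose in 10 of 10 cases (1185 and 1375 CPM in NICD_mut, against 749 to 833 CPM in NICD_wt). Macrophage and leukocyte markers rose in 8 of 10 (196 CPM in both NICD_mut libraries, against 74.9 to 84.5 CPM in NICD_wt). The other 2, Aif1 and the leukocyte gene Ptprc, did not pass, at 1.09 (SE 0.44) and -0.38 (SE 0.21). For Ptprc both NICD_mut libraries lay below every NICD_wt library. Among 10 erythroid markers, 4 rose (7 without NICD_wt 1) and 1, the transferrin receptor gene Tfrc, fell, at -0.79 (SE 0.11). The part of these cell types in the lower level of the members was not tested. Skeletal muscle genes took 0.363% of the counts of NICD_mut 1 and 0.00163% of those of NICD_mut 2, against 0.0152% in NICD_wt 1 and 0.000541 to 0.000607% in the other NICD_wt libraries. The members' summed level was alike in the NICD_mut libraries, 3543 and 3519 CPM, against 5530 to 5716 CPM in NICD_wt. Without NICD_mut 1 and NICD_wt 1, 23 S-phase and 21 mitotic members fell, as with all libraries; that fit keeps 1 NICD_mut library, which is assumed to vary like NICD_wt.

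**Figure D5:**
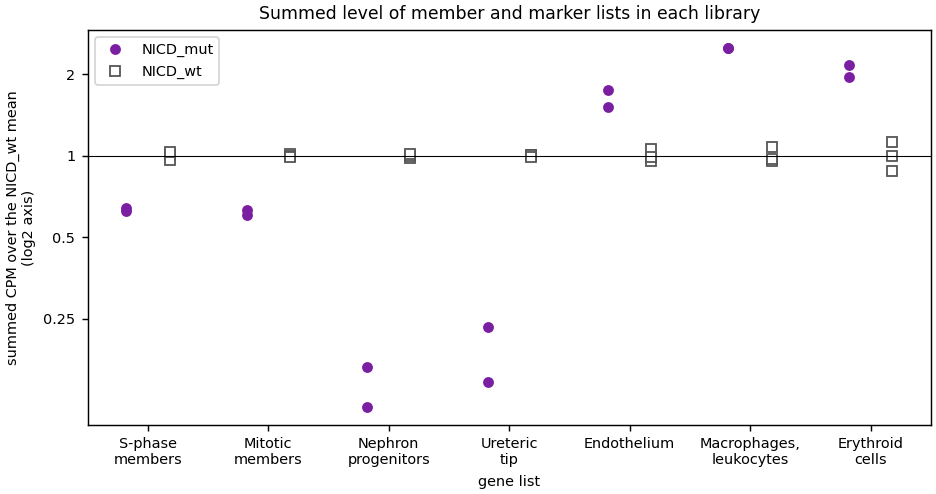
Summed CPM of member and marker lists in each library over the mean of the 3 NICD_wt libraries, on a log2 axis; filled circles are the 2 NICD_mut libraries and open squares the 3 NICD_wt libraries. Both member lists lie between the deep fall of the nephron progenitor and ureteric tip markers and the higher endothelial, leukocyte and erythroid markers.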

How the data were processed

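Estimated counts were deposited by gene symbol as whole numbers, which needed no rounding. TPM were deposited for the same genes and libraries, with about the same sum in each. The submitters' processing notes name RSEM, Bowtie2 and mm10; for their versions, the annotation and the strand setting, nothing was given in the sources used here. Columns were matched to samples by name. Counts were tested with the edgeR 4.0.16 quasi-likelihood test (R 4.3.3, robust, TMM, filterByExpr by group with minimum count 10 and total 15), for NICD_mut against NICD_wt with no covariate. P-values were Benjamini-Hochberg adjusted over 15885 genes, with a threshold of 0.05. Standard errors (SE) are the log2 change over the root of the F value. Alternatives used limma 3.58.1 (with a TPM of at least 1 in 2 libraries where filtered) and DESeq2 1.42.0. Gene positions and exonic lengths are from GENCODE M21, which may differ from the authors' annotation; promoter sequences are from RefSeq. Members, lists and tests were chosen with earlier results of these data known. Listed symbols Casc5, Sgol1 and Sgol2 are older names of genes already counted (Knl1, Sgo1 and Sgo2a), and Atrip and Hbb-bt were not analysed here. Values by library were given, for each functional group, for the member with the smallest adjusted p, the member with the largest change and each member that did not pass; of other lists the 3 smallest adjusted p and any gene called against its list, 1 of which is not reported here. E2f2 and Uhrf1 were given by library in addition, as were E2f3 and Cdk6. On simulated counts for this comparison (15885 genes run), recovery by the test was 37% for 1.5-fold, 73.1% for 2-fold and 80% for 4-fold changes. Unchanged genes made up 12.7% of calls, more than the threshold of 0.05 is meant to allow, so adjusted p-values may be too small. Only 73, 67 and 60 genes were changed by these folds, while 7583 genes passed in the data. Recovery and the share of unchanged genes depend on how many genes change, so these values need not hold for the data. Plots used matplotlib 3.10.9 (Python 3.11.15).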

Additional observations from a re-analysis of the deposited data

How the results depend on the processing

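Every count of members called lower stayed within 1.5 times its main value in the 16 alternatives: 20 to 23 S-phase members and 20 to 21 mitotic members, with 40 or 41 of 46 in the TPM analyses. Of 736 comparisons of a member under an alternative 718 kept direction and side of the threshold. Another 14 no longer passed (E2f2, Pola1, Cenpe and Mcm6) and 4 changed sign, all of E2f1. These were 0.043, 0.044 and 0.043 by limma on log2(TPM + 1), log2(TPM + 0.1) and log2(TPM + 1) with no filter, and 0.034 without NICD_mut 2. With a library left out E2f1 ran over -0.205 to 0.034. In those TPM analyses the S-phase median was -0.602, -0.61 and -0.602 and the mitotic median -0.709, -0.715 and -0.709, while the median of all genes was 0.106, 0.116 and 0.077. The mitotic median was -0.795 with at least 50 counts in 2 libraries, -0.84 to -0.791 with a library left out and -0.768 without NICD_mut 1 and NICD_wt 1; the cause of these moves was not tested. Of 352 comparisons of 22 other named genes 333 kept direction and side. Among the rest, Cit was at 0.00483 with at least 50 counts in 2 libraries and 0.000233 by limma on log2(TPM + 1), with or without the filter, and ran over -0.23 to 0.152 with a library left out, Zwint over -0.026 to 0.211 and Rb1 over -0.035 to 0.465; Rb1 was at -0.045 without NICD_mut 1 and NICD_wt 1. Rbl2 was at 0.27 with the replicate block (edgeR, adjusted p = 0.078). Replicate numbers are shared by name alone: deviations from group means correlated at 0.34 for the libraries numbered 1 and 0.149 for those numbered 2. NICD_mut 2 and NICD_wt 3, of unlike number, correlated at 0.234. With 2 NICD_mut libraries their deviations mirror each other, so these correlations cannot show whether the numbers mark pairs. With the replicate block 5535 genes passed in all, with 23 S-phase and 21 mitotic members lower at medians of -0.714 and -0.804. With 2 NICD_mut libraries, fits without 1 of them assume that the lone library varies like NICD_wt.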
